A study of Mus musculus with 24 samples.

Results

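The olfactory mucosa is the smell-sensing lining of the nose, and its genes were set against a pool of RNA from unrelated cell lines. The comparison took every array labelled as normal olfactory mucosa (OM, 3 arrays) and every array labelled as mouse reference RNA (mREF, 3 arrays), which is 6 of the 24 arrays of the series. It covered all 12495 genes that passed a detection filter, of 19057 genes with a named probe. OM replicates were whole dissociated mucosa of wildtype adult F1 mice (129S1/SvImJ x C57BL/6J) aged 8 to 12 weeks, each pooling 2 to 7 mice, sorted for live cells that excluded propidium iodide. mREF was a commercial pool of RNA from 11 cultured lines of various strains, among them fibroblasts, myoblasts, T and B lymphocytes, alveolar macrophages, hepatocytes and lines from kidney, mammary gland, skin, testis and embryo. The 3 mREF arrays repeat one pool and were counted as 1 sample. Tissue, strain, dissociation, live-cell sorting and growth in culture all differ between the groups and cannot be told apart.

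Sorted cells of the same mucosa entered the filter, the normalisation, the choice of probe and the estimate of spread, and show where genes higher in OM were bright. With OM and mREF alone and mREF averaged, 4498 genes were called in place of 6589. All came from 8 to 12 week old mice, with 3 arrays in each group, sorted for live cells. Sox2GBC (low reporter signal, gated as Ecad/CD54 negative) and Sus (high reporter signal, negative for CD54) were heterozygous for a Sox2 GFP reporter, from a cross to FVB/NJ, and are named by the series for globose basal cells and sustentacular cells. Neurog1-Ctrl came from Neurog1-GFP heterozygotes (FVB/NJ cross) and OMP from OMP-GFP heterozygotes (CD-1 cross). Neurog1-OBX and OMP-OBX carried the same reporters, taken 3 weeks after removal of the olfactory bulb on that side. A reporter gate need not hold a single cell type.

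Olfactory sensory neurons detect odorants on cilia that reach into the nasal mucus. A bound odorant receptor activates a G protein, which switches on an adenylyl cyclase, and the cAMP it makes opens a cation channel and then a chloride channel. Neurons are replaced throughout life from globose and horizontal basal cells, while sustentacular cells support the epithelium and carry enzymes that clear inhaled chemicals, and Bowman glands secrete the mucus.

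Values are normalised log2 bead intensities, differences are OM minus mREF with their standard error, and a gene is called where limma's adjusted p is below 0.05. The spread was taken from the 7 mucosal groups, with mREF as 1 averaged sample assumed to vary like them. Where a gene was not detected on any array of one group, a lower bound is also given, written as at least N-fold. In every list, genes detected on no mREF array passed the filter through mucosal arrays alone, which largely fixed their direction. In bulk RNA, more cells of a type and more RNA per cell cannot be told apart.

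The 3 OM arrays were not equally alike. Across the 12495 genes, OM replicates 2 and 3 correlated with r = 0.99, against 0.95 for replicate 1 with either of them, while mREF arrays correlated at 0.98 to 0.99 with each other and OM with mREF at 0.64 to 0.67. In 1947 genes OM replicate 1 lay at least 1 log2 unit from the mean of the other two, against 540 genes for replicate 2 and 381 for replicate 3. Odorant receptors read lower on OM replicate 1 (median -0.79 from the other two, lowest of the 3 arrays in 477 of 580 genes), as did the myeloid list (-0.95) and the endothelial list (-1.15). Immediate early genes, which respond to cell stimulation within minutes, read higher there (median 1.13, highest of the 3 arrays in 10 of 11), as did sustentacular genes (0.95). The spread of the negative controls was 4.87 intensity units on OM replicate 1 and 4.31 on mREF replicate 1, against 16.9 and 18.1 on OM replicates 2 and 3 and 22.0 on mREF replicate 3. As a description, since the genes were called with these same arrays, between OM replicate 1 and mREF replicate 1 alone 99.9% of called genes kept their direction and 4 did not, and between OM replicates 2 and 3 and mREF replicate 3 the share was 100%. Without OM replicate 1 the fit called 6806 genes in place of 6589.

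OM and the reference pool differed widely, and more genes rose steeply than fell steeply. limma called 6589 of 12495 genes (52.7%), of which 3426 were higher in OM (27.4%) and 3163 lower (25.3%). With median scaling in place of quantile normalization the split was 3315 higher and 2008 lower, and the median difference over all genes moved from 0.05 to 0.24. With a difference of at least 2-fold added, 5590 genes were called (44.7%), 2960 higher (23.7%) and 2630 lower (21%). At 16-fold or more the counts were 590 higher and 196 lower, and at 64-fold or more 190 and 21. Each gene was read on its brightest probe over all 24 arrays, most of them mucosal, and mREF mixes 11 lines. How far either shaped these counts was not tested. Detection at a p below 0.01 gave 1248 genes present on all 3 OM arrays and on no mREF array (9.99%), against 401 present on all 3 mREF arrays and on no OM array (3.21%). At a detection p of 0.05 these counts were 1318 and 257. The arrays of the groups did not overlap in 4417 genes higher in OM (35.4%) and 3971 lower (31.8%).

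**Figure D1:**
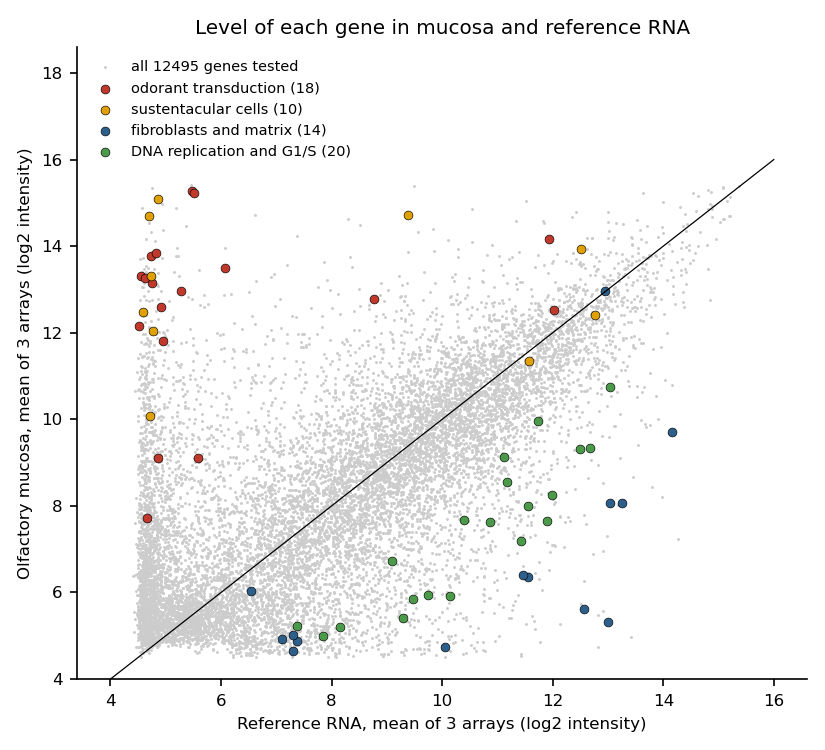
Each point is a gene, with its mean log2 intensity over the 3 mREF arrays on the horizontal axis and over the 3 OM arrays on the vertical axis, and the line marks equal levels. Genes of odorant transduction (red) and sustentacular cells (orange) lie mostly in the upper left, and those of the matrix (blue, except Dcn) and of DNA replication (green) below the line.

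Omp, the olfactory marker protein of mature sensory neurons, checked the label of the tissue. It read 15.54, 15.16 and 15.09 on the OM arrays and 5.68, 5.04 and 5.68 on the mREF arrays. The groups were far apart, by 9.80 ± 0.25 (adjusted p = 4.89e-16), although OM replicate 1 lay at the highest value of the normalised scale, 15.54, so the size is uncertain. A dimmer Omp probe differed by 4.85. Omp was detected on all 3 OM arrays and on 1 mREF array.

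The largest rise on the normalised scale belonged to Scgb1c1, a secretoglobin, one of a family of small secreted proteins. Several of the 12 largest rises read near the top of that scale, 15.54, in OM, so their order is uncertain. It read 15.47, 15.39 and 15.19 in OM and 4.75, 4.85 and 4.64 in mREF, a difference of 10.60 ± 0.47 (adjusted p = 6.3e-13, at least 762-fold). Sec14l3, a lipid-binding protein of the Sec14 family, read 15.36, 14.58 and 14.72 against 4.53, 4.50 and 4.67 (10.32 ± 0.41, adjusted p = 1.3e-13, at least 552-fold). The 12 largest rises also held 2 genes of cytochrome P450 enzymes, which oxidise foreign chemicals. Cyp2a5 read 15.09, 15.07 and 15.11 against 4.45, 4.80 and 5.30 (10.24 ± 0.30, at least 637-fold), though its probes may also bind the near-identical Cyp2a4. Cyp2g1 read 15.39, 14.13 and 14.54 against 4.82, 4.56 and 4.71 (9.99 ± 0.51, at least 481-fold). Neither P450 gene was detected on any mREF array.

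Several neuronal genes were among the other steep rises. Kcnc4, a voltage-gated potassium channel, read 15.13, 15.00 and 14.79 against 5.14, 4.90 and 4.79 (10.03 ± 0.28, adjusted p = 1.86e-15, at least 588-fold). S100a5, a calcium-binding protein of olfactory neurons, read 15.26, 15.54 and 15.43 against 5.70, 5.30 and 5.38 (9.95 ± 0.20, adjusted p = 2.23e-17). Its value on OM replicate 2 was the highest of the normalised scale, so the size is uncertain. Gng13, a G protein gamma subunit of the odorant cascade, read 14.99, 15.33 and 15.39 against 5.74, 5.08 and 5.70 (9.73 ± 0.25, adjusted p = 6.85e-16). In each of these the 3 arrays of a group lay close together and far from the other group. Kif1a, a kinesin that carries synaptic vesicle precursors along axons, rose by 9.60 ± 0.31 on its brightest probe but by 1.65 on another, and Rtn1, a reticulon of the endoplasmic reticulum of neurons, by 9.53 ± 0.39, with 4 other probes at 2.91 to 8.49. The secreted protein gene Vmo1 (9.85 ± 0.70, at least 436-fold) and the mesothelin-like gene Mslnl (9.71 ± 0.31, at least 554-fold) were the other two of the 12.

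**Figure D2:**
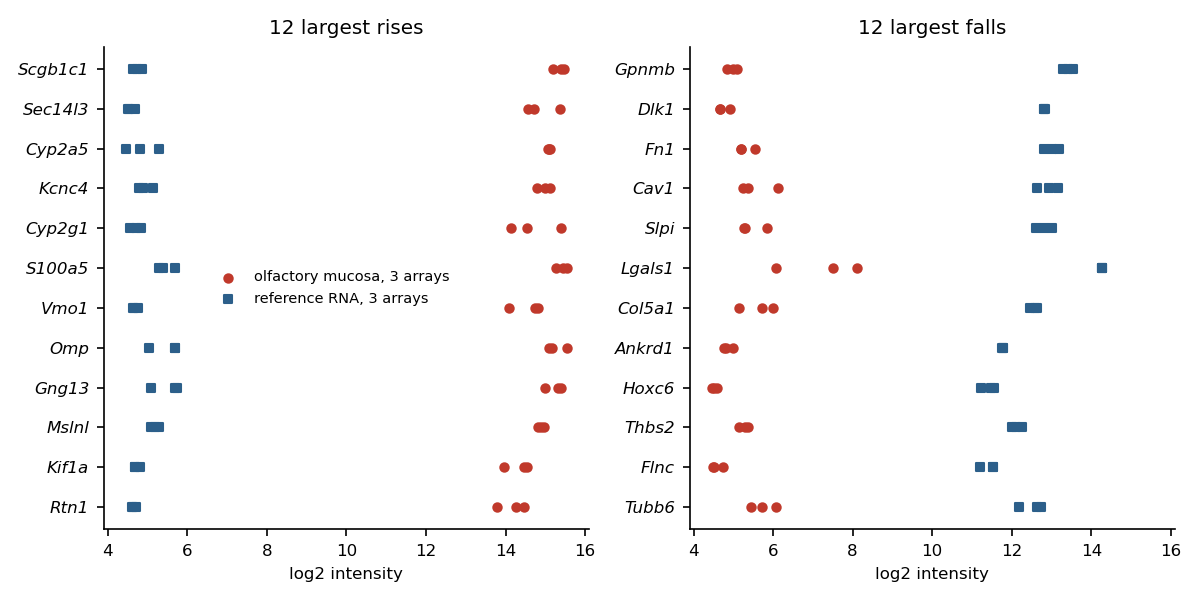
Log2 intensity on each OM array (red circles) and each mREF array (blue squares) for the 12 genes with the largest rise (left) and the largest fall (right). No gene shown has overlapping groups, and among the falls the OM arrays of Lgals1 spread the most, from 6.07 to 8.10.

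Transcription factors of the olfactory lineage were among the genes that rose. Of 8 tested in this list, 7 were called higher (87.5%, beside 27.4% of all genes) and 0 lower, with a median difference of 5.03 beside 0.05 over all genes. Ebf2, a factor of the Olf/Ebf family of helix-loop-helix proteins, read 13.08, 13.77 and 13.35 in OM against 4.41, 4.42 and 4.90 (8.83 ± 0.39, adjusted p = 5.82e-13, at least 197-fold). Ebf3 and Ebf1, of the same family, were detected on all 3 mREF arrays and rose by 4.76 ± 0.36 and 3.06 ± 0.54. Fezf1, a zinc finger factor needed for olfactory neuron development, rose by 8.47 ± 0.42 and was read at 13.20, 12.94 and 13.04 in OM. The homeobox genes Otx2 (6.75 ± 0.52), Lhx2 (5.29 ± 0.39) and Dlx6 (2.41 ± 0.52) rose as well, and none of these 3 was detected in mREF. Dlx3, a homeobox gene of skin and placenta, read 8.32, 7.69 and 7.54 against 6.44, 6.00 and 6.65 and was not called (adjusted p = 0.065).

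Promoters were searched on both strands for the palindromic motif of the Olf/Ebf family, which is TCCC, any 2 bases and then GGGA, in the 250 bases before and 50 bases after each start site (RefSeq, build GRCm38.p6). At least 1 match was present in 1.06% of the 27025 genes with a promoter in the table, in 1.33% of 10086 genes tested here, in 9 of 456 genes (1.97%) that were at least 16-fold higher in OM, and in 1 of 145 (0.69%) that were at least 16-fold lower. Among odorant transduction genes 0 of 14 held it, which says only that these letters are not in this window. The core homeodomain motif TAATTA was present in 6.12% of the 27025 genes and in 4.03% of genes tested. It was present in 5.26% of the 16-fold higher group, 2.76% of the 16-fold lower group and 0 of 14 odorant transduction genes. The following promoters are printed 5′ to 3′ on the strand of the gene, with the match in capitals: the 3 genes with the largest rise that hold one, and Scgb1c1, which had the largest rise of all and holds none. Sec14l3 lies at chr11:4064603-4064902, with its match starting 29 bases before the start site. Acsm4, an acyl-CoA synthetase gene on the mature neuron list that rose by 6.32 ± 0.43, lies at chr7:119689776-119690075, with its match 18 bases before the start. Dpysl5, a collapsin response protein of growing axons, lies at chr5:30711314-30711613, with its match 53 bases before the start. Scgb1c1 lies at chr7:140845315-140845614, and all 4 are on the plus strand.
Sec14l3: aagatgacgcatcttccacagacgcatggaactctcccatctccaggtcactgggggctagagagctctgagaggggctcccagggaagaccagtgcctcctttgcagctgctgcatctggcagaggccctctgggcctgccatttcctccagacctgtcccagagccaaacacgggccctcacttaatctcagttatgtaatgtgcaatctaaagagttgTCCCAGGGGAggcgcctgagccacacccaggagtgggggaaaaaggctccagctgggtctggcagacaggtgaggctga
Acsm4: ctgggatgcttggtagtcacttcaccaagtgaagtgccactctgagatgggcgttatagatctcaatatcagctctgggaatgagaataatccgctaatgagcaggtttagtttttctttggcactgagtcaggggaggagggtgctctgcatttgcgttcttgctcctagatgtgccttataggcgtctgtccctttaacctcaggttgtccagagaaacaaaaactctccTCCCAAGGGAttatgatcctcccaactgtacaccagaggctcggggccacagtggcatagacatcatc
Dpysl5: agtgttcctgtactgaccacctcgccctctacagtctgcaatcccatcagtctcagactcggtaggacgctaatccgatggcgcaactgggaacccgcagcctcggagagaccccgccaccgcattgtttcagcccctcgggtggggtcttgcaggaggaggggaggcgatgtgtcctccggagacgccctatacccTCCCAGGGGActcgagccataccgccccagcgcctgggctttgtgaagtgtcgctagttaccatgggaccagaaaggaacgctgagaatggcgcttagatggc
Scgb1c1: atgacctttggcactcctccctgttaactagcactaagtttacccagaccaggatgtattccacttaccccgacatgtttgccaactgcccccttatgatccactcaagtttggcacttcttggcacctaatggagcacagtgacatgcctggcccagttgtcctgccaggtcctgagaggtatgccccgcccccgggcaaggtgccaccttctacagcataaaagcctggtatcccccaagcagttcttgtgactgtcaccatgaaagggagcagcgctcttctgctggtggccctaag

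Nearly every tested component of the odorant cascade was higher in OM. Of 18 genes 17 were called higher (94.4%, beside 27.4% of all genes) and 0 lower, with a median difference of 7.66. Rtp1 and Rtp2, chaperones that bring odorant receptors to the cell surface, rose by 9.03 ± 0.28 (other probes at 3.66 and 4.41) and 8.63 ± 0.32, and Reep1, a further accessory protein, by 6.87 ± 0.28. Gnal, the alpha subunit of the olfactory G protein, rose by 7.63 ± 0.58 (at least 83.4-fold), and its exchange factor Ric8b by 4.01 ± 0.29. Adcy3, the adenylyl cyclase, read 11.94, 13.10 and 12.72 against 4.81, 5.13 and 4.78 (7.68 ± 0.39, another probe at 1.31). Of these genes, Ric8b alone was detected on all 3 mREF arrays.

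The channel steps showed the same direction. Cnga2, the main subunit of the cAMP-gated cation channel, read 12.78, 13.50 and 13.64 against 4.57, 4.35 and 4.73 (8.76 ± 0.32, adjusted p = 4.33e-14, at least 185-fold). Its partners Cnga4 and Cngb1 rose by 7.70 ± 0.84 and 7.43 ± 0.31, although a further Cngb1 probe gave -0.54. Ano2, the calcium-activated chloride channel, rose by 8.41 ± 0.28 (another probe at 2.78). Stoml3, a stomatin of olfactory cilia, read 12.42, 14.43 and 14.45 against 4.90, 4.68 and 4.61 (9.04 ± 0.67), and by 9.71 without OM replicate 1. Genes that end the response or reset the ions also rose: the exchanger Slc24a4 by 4.26 ± 0.53, and the phosphodiesterases Pde4a by 3.52 ± 0.60 (other probes at 0.61 to 2.58) and Pde1c by 3.06 ± 0.35 (other probes at 0.50 to 1.42). Slc12a2, the chloride loader found in many tissues, rose by 2.23 ± 0.27 from a level of 11.74 to 12.13 in mREF. The one gene not called was Gnb1, a G protein beta subunit used by most cells, at 11.65, 13.00 and 12.92 against 12.01, 12.13 and 11.91 (0.50 ± 0.52, adjusted p = 0.441).

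Odorant receptors, the largest gene family of the mouse, were read as a family, since similar members can share probes. Of 1071 named on the array, 580 passed the filter, and 348 of these were called higher in OM (60%, beside 27.4% of all genes) and 0 lower, with a median difference of 1.42. By detection, 320 receptors were found on all 3 OM arrays and 190 on 1 or 2, while 572 of 580 were found on no mREF array. Passing the filter required detection on at least 3 of the 24 arrays, so receptors of too few neurons to be seen are not among the 580. The 572 passed through mucosal arrays alone, so their absence from mREF and the direction of their differences were largely fixed by the filter and are a description. Mean levels in OM ran from 4.65 to 11.8 with a median of 6.12 and quartiles of 5.52 and 7.06, against 4.43 to 5.99 in mREF. Few receptors were bright, and 31 of the 348 differed by 4 log2 units or more. In the fit of OM and mREF alone, with mREF averaged, the count of receptors called higher was 210.

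The receptor with the highest OM mean was Olfr726, at 11.53, 11.91 and 11.85 against 4.58, 4.98 and 4.60 (7.04 ± 0.55, adjusted p = 2.21e-09, at least 63.5-fold). Olfr1347 read 10.47, 11.98 and 11.83 against 4.54, 4.64 and 4.51 (6.87 ± 0.51, another probe at 2.33), and Olfr672 10.49, 10.74 and 11.24 against 4.46, 4.61 and 4.82 (6.19 ± 0.53). Olfr727, Olfr1508 and Olfr1260 followed, with rises of 6.19 ± 0.88, 5.76 ± 0.42 and 5.70 ± 0.45. Olfr726, Olfr727 and Olfr1508 lie on chromosome 14, Olfr1347 and Olfr672 on chromosome 7 and Olfr1260 on chromosome 2. These levels come from different probes and give no order of transcript number. Olfr727 was dimmer on OM replicate 1 (9.41) than on the others (11.37 and 11.34), as was Olfr1347. At the other end, Olfr724 was the one receptor found on all 3 mREF arrays, at 5.43, 6.02 and 6.50 against 5.28, 5.66 and 5.43 in OM, and was not called (adjusted p = 0.229). It was picked after its values were seen.

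**Figure D3:**
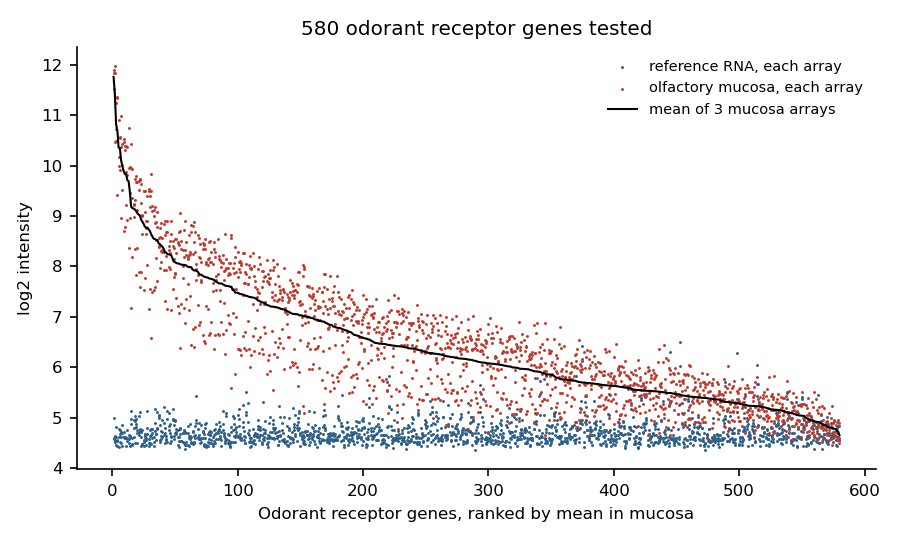
Log2 intensity of the 580 odorant receptors on each OM array (red) and each mREF array (blue), ordered by their OM mean (black line). The OM mean falls from 11.8 to 4.65 across the family, while the mREF means stay between 4.43 and 5.99.

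The trace amine-associated receptors, a small family of olfactory receptors for amines, gave weak signals. Of 15 members 11 were tested and 8 called higher (72.7%, beside 27.4% of all genes), with a median of 1.27. The count was 4 without OM replicate 2 and 4 without replicate 3. Of the 11, 10 were detected on no mREF array and passed the filter through mucosal arrays alone, which largely fixed their direction. Taar6 read 5.87, 6.44 and 6.61 against 4.83, 4.55 and 5.08 (1.49 ± 0.40, adjusted p = 0.00433). Taar3 overlapped between the groups (5.16, 6.51 and 6.55 against 5.56, 6.43 and 6.31, adjusted p = 0.975). Of vomeronasal receptors, which belong to the separate vomeronasal organ, 5 of 172 passed the filter, 0 were detected on all 3 OM arrays, and Vmn1r123 was lower in OM (-2.11 ± 0.34).

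Genes of mature sensory neurons had the highest median of the 35 lists, 8.58, with 14 of 15 called higher (93.3%, beside 27.4% of all genes) and 0 lower. Besides Omp and the cascade genes they include Pcp4l1, a small neuronal protein, at 14.07, 14.79 and 14.22 against 4.95, 4.72 and 5.17 (9.42 ± 0.35), and Slc17a6, the vesicular glutamate transporter, at 13.53, 14.01 and 13.76 against 4.91, 5.39 and 5.27 (8.58 ± 0.27). The cell adhesion genes Kirrel3, Kirrel2 and Ncam2, which take part in axon sorting, rose by 3.62 ± 0.38, 2.52 ± 0.38 and 3.75 ± 0.55. Trim66 read 5.65, 5.22 and 5.30 against 4.66, 4.62 and 4.59 and was not called (0.77 ± 0.43, adjusted p = 0.146). Presynaptic genes gave 13 of 15 higher (86.7%, beside 27.4% of all genes), 0 lower and a median of 3.96. They were led by Syt1, the calcium sensor of vesicle release (8.55 ± 0.29, other probes at 0.98 and 6.53), and the vesicle protein Syp (8.07 ± 0.34). Cplx1 (0.37 ± 0.54) and Bsn (-0.36 ± 0.42) were not called and were each detected on 1 OM array.

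Lists of younger stages of the lineage were mixed. Of 19 genes of immature sensory neurons 13 were called higher (68.4%, beside 27.4% of all genes) and 0 lower, with a median of 3.96. Gap43, a growth cone protein, read 11.07, 10.68 and 10.78 against 4.62, 4.53 and 4.65 (6.24 ± 0.57, at least 33.5-fold). Dcx, which binds the microtubules of migrating young neurons, read 10.59, 11.01 and 11.13 against 5.12, 4.90 and 4.97 (5.91 ± 0.48). The RNA-binding protein gene Elavl3 rose by 8.56 ± 0.49, and Dpysl5 by 6.19 ± 0.43 with another probe at 0.58. Of the 6 not called, Stmn1, Marcksl1, Marcks (-0.06 ± 0.27), the chemokine receptor gene Cxcr4 (-0.15 ± 0.53) and the neuronal tubulin gene Tubb3 overlapped between the groups, and Dbn1 did not (0.99 ± 0.45, adjusted p = 0.0713). Tubb3, detected on no OM array, read 4.98, 5.18 and 5.71 against 4.66, 6.12 and 5.30 (-0.07 ± 0.40). Of 8 genes of neuronal precursors 3 were higher (37.5%, beside 27.4% of all genes) and 0 lower (median 0.99), led by Insm1, a zinc finger factor of dividing neuronal precursors, at 11.86, 11.90 and 12.15 against 4.71, 4.54 and 4.63 (7.34 ± 0.57, at least 73.2-fold). Sox11 rose by 4.25 ± 0.50, with other probes at 0.08 to 3.35, and Hes6 by 2.67 ± 0.49. The 5 not called were Neurog1 (0.27 ± 0.35, detected on no OM array), Neurod1, Sox4, Mfng and Gadd45g. Of 6 progenitor regulators 3 were higher (50%, beside 27.4% of all genes) and 1 lower (16.7%, beside 25.3%). The higher ones were the receptor Kit (4.60 ± 0.62, another probe at 0.16), Sox2 (3.28 ± 0.46, another at 0.73) and Lgr5 (1.94 ± 0.51, not called with OM and mREF alone and mREF averaged). The chromatin regulator Ezh2 was lower (-1.57 ± 0.64, adjusted p = 0.0483), a call that was lost without OM replicate 1 (-1.55), OM replicate 3 (-1.43), mREF replicate 2 (-1.54) or mREF replicate 3 (-1.46).

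Genes on the list for horizontal basal cells, the reserve stem cells of the epithelium, were mostly higher. No sorted group is named for these cells, and which cells of the mucosa carried the genes was not tested. Of 11 genes 8 were called higher (72.7%, beside 27.4% of all genes) and 2 lower (18.2%, beside 25.3%), with a median of 2.43. Krt5 read 9.11, 10.06 and 9.96 against 4.80, 4.57 and 4.71 (5.01 ± 0.53, at least 15.3-fold), and Krt14, its partner, 12.59, 12.66 and 12.65 against 8.92, 8.41 and 8.71 (3.95 ± 0.53). Trp63, the transcription factor of basal epithelia, read 10.65, 10.64 and 10.55 against 6.32, 5.51 and 6.20 (4.60 ± 0.50). All 3 genes were higher on every OM array than on any mREF array. Krt17 rose by 6.93 ± 0.54 and the hemidesmosome collagen gene Col17a1 by 4.13 ± 0.31. The 2 lower genes, named after their values were seen, were the integrin gene Itga6 (-1.72 ± 0.43, other probes at -1.20 and -0.60) and the growth factor receptor gene Egfr (-1.57 ± 0.53).

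Genes of sustentacular cells and of xenobiotic enzymes were mostly higher. Of 10 sustentacular genes 8 were higher (80%, beside 27.4% of all genes) and 0 lower, with a median of 6.33. Among the sorted groups, 6 of the 8 were highest in Sus, 1 in OMP and 1 in Sox2GBC. Besides Cyp2a5 and Cyp2g1 these include Ugt2a2, a glucuronosyltransferase that shares sequence with Ugt2a1, at 13.49, 12.91 and 13.55 against 4.74, 4.87 and 4.58 (8.59 ± 0.47), and the carbonyl reductase gene Cbr2, at 15.21, 14.41 and 14.51 against 9.61, 9.25 and 9.29 (5.33 ± 0.44). The epithelial keratins Krt8 and Krt18, which many cultured lines carry, overlapped between the groups: Krt8 read 13.55, 11.60 and 12.11 against 12.75, 12.95 and 12.62 (-0.35 ± 0.55, and -0.92 without OM replicate 1). Over the wider list of xenobiotic metabolism, 26 of 33 genes were higher (78.8%, beside 27.4% of all genes) and 3 lower (9.09%, beside 25.3%), with a median of 2.86. Cyp2f2 rose by 9.09 ± 0.46, the carboxylesterase gene Ces1d by 8.75 ± 0.44 and the sulfotransferase gene Sult1d1 by 7.90 ± 0.38 (another probe at 0.51). Sult1d1 is also counted among the 8 sustentacular genes, though it averaged 13.2 in OMP and 9.10 in Sus. Ces1d has close relatives that may bind the same probe. The 3 lower genes, named after their values were seen, were the glutathione transferase genes Gstp1 (-3.10 ± 0.33) and Gsto1 (-2.30 ± 0.59) and the carbonyl reductase gene Cbr3 (-1.83 ± 0.51).

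Secreted proteins of Bowman glands and nasal mucus gave 12 of 20 higher (60%, beside 27.4% of all genes) and 0 lower, with a median of 4.20. Bpifa1, an antimicrobial airway protein, read 14.52, 13.57 and 14.29 against 4.59, 5.28 and 4.55 (9.32 ± 0.52, at least 326-fold). Its relatives varied more between OM replicates: Bpifb3 read 11.97, 13.87 and 14.59 (8.87 ± 1.41) and Bpifb6 9.74, 12.01 and 13.52 (7.12 ± 1.60). The milk and mucus iron-binding protein gene Ltf rose by 7.68 ± 0.72 (another probe at 0.79). Obp2a, an odorant-binding protein, read 5.10, 10.52 and 8.31 against 5.05, 4.70 and 5.12 and was not called (3.02 ± 2.86, adjusted p = 0.397), and Bpifb9a, at 6.51, 7.05 and 11.13 in OM, was not called either (adjusted p = 0.253). For both, the 3 OM replicates lay far from each other, and what sets them apart was not tested. The gland factor Sox9 overlapped between the groups (-0.50 ± 0.41).

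Rare epithelial types were detectable. Of 12 genes of microvillar cells, brush cells and ionocytes 7 were higher (58.3%, beside 27.4% of all genes) and 0 lower (median 1.52). The ionocyte factors Ascl3 (OM mean 10.34, 5.65 ± 0.79) and Foxi1 (7.63, 7.71 and 7.65, 3.08 ± 0.56, another probe at 0.92) were detected on all 3 OM arrays and on no mREF array. Trpm5, the cation channel of chemosensory brush cells, read 7.98, 7.60 and 7.48 against 4.79, 4.59 and 5.23 (2.82 ± 0.42), while Avil overlapped (0.19 ± 0.52). Motile cilia of the respiratory epithelium share parts with the immotile cilia of olfactory neurons. Of the 11 motile cilia genes called higher, 8 were highest in OMP and 3 in Neurog1-Ctrl among the sorted groups. Of 15 motile cilia genes 11 were higher (73.3%, beside 27.4% of all genes) and 0 lower (median 3.59). They were led by the filament gene Tekt1 (11.06, 11.66 and 11.66 against 4.49, 4.81 and 4.52, 6.85 ± 0.30) and the radial spoke gene Rsph4a (6.53 ± 0.29). The dynein heavy chain gene Dnah5 was not called (0.83 ± 0.41, adjusted p = 0.0996). The machinery of all cilia, intraflagellar transport and the BBSome, gave 17 of 23 higher (73.9%, beside 27.4% of all genes) and 0 lower, with a median of 1.85. Bbs4 (3.39 ± 0.28) and Bbs7 (2.77 ± 0.31) led, and 18 of the 23 genes were detected on all 3 mREF arrays.

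**Figure D4:**
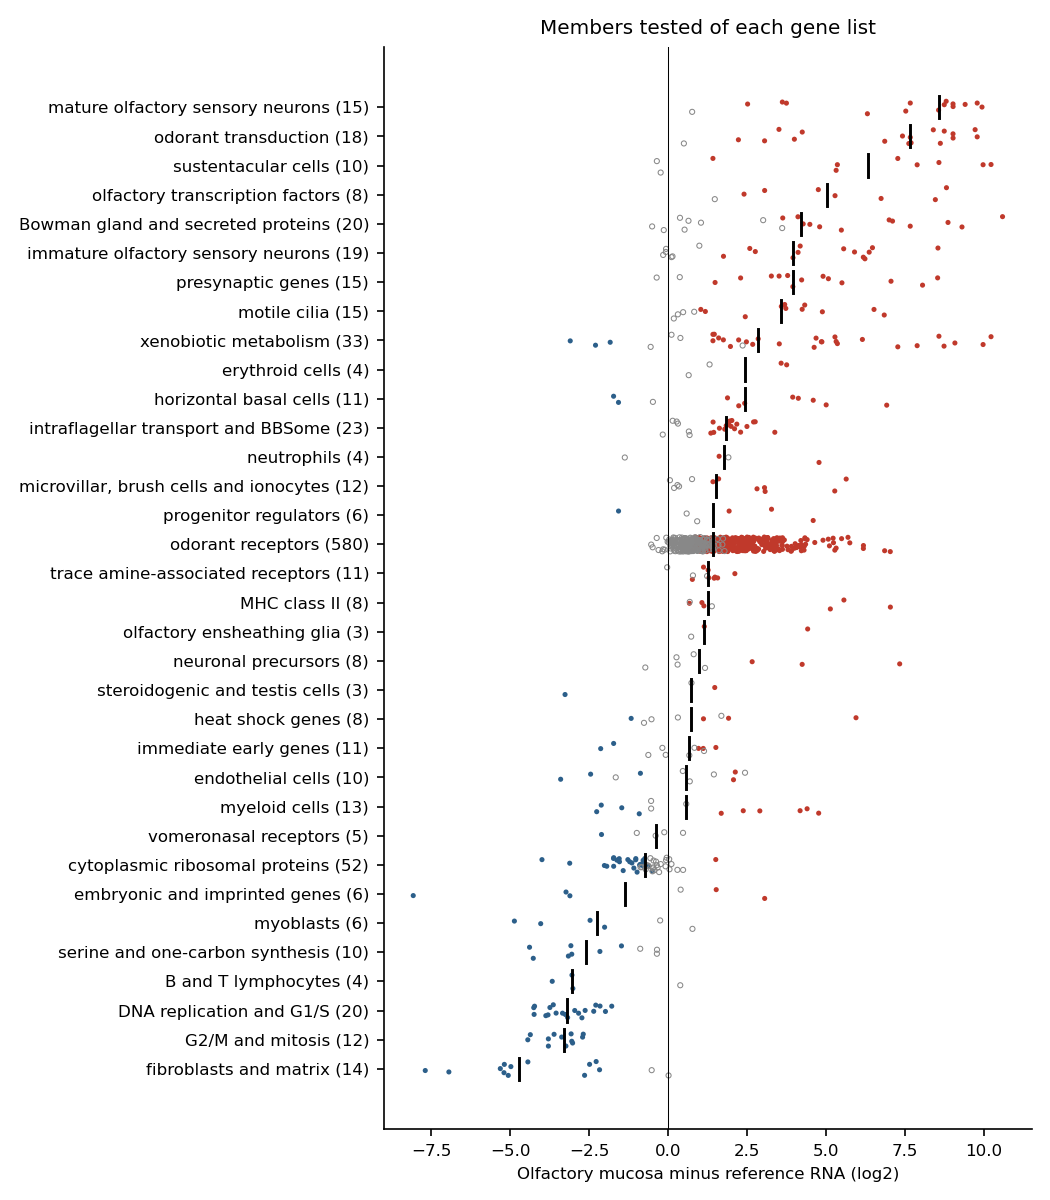
Difference between OM and mREF (log2) for each tested member of the gene lists with at least 3 tested members (number in brackets), in red where called higher in OM, blue where called lower and open where not called, with the list median as a bar. Neuronal and sustentacular lists lie at the top, matrix and cell cycle lists at the bottom, and odorant receptors spread from -0.53 to 7.04.

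Cells of blood, immune and connective tissue in the dissociated mucosa gave mixed lists, and the pool itself holds macrophage and lymphocyte lines. Of 13 myeloid genes 6 were higher and 4 lower (median 0.58), shares of 46.2% and 30.8% beside 27.4% and 25.3% of all genes. The summed level of the list was 12.4 to 13.0 on the OM arrays and 12.1 to 12.3 on the mREF arrays. The complement gene C1qb of tissue macrophages read 8.35, 10.03 and 9.82 against 4.77, 4.53 and 4.57 (4.78 ± 0.56, 5.30 without OM replicate 1), and the Fc receptor chain gene Fcer1g 7.57, 9.62 and 9.60 against 4.41, 4.61 and 4.54 (4.41 ± 0.57). The 4 lower genes, named after their values were seen, were Cd14 (-2.26 ± 0.55), Adgre1 (-2.11 ± 0.41), Ctss (-1.46 ± 0.36) and Csf1r (-0.91 ± 0.27). Of 8 MHC class II genes, which present antigen, 6 were higher (75%, beside 27.4% of all genes) and 0 lower. They were led by H2-Ab1 at 11.45, 11.99 and 12.22 against 4.68, 5.11 and 4.73 (7.05 ± 0.96) and H2-Eb1 (5.58 ± 0.59). With OM and mREF alone and mREF averaged 3 were called. Of 4 lymphocyte genes tested 3 were lower (75%, beside 25.3% of all genes), with Cd79b of B cells at 5.39, 6.48 and 7.35 against a mean of 10.07 (-3.67 ± 0.47) and Cd3e of T cells at -3.01 ± 0.50. Of 4 neutrophil genes 2 were higher (50%, beside 27.4% of all genes) and 0 lower. The higher ones were S100a9 (4.79 ± 0.62) and Retnlg (1.62 ± 0.60, not called without OM replicate 2, at 1.11). S100a8 (1.92 ± 0.81, adjusted p = 0.0539) and Lcn2 (-1.37 ± 0.72, adjusted p = 0.118) were not called, though neither overlapped between the groups. Of 4 red cell genes 2 globin genes of near-identical sequence were called higher (50%, beside 27.4% of all genes), Hbb-bs (3.76 ± 1.38) and Hbb-bt (3.59 ± 1.47). Neither was called without OM replicate 2 (3.10 and 3.01) or OM replicate 3 (3.43 and 3.17), nor Hbb-bt without mREF replicate 3 (3.52). Hbb-bs read 6.39 on OM replicate 1 and 9.69 and 9.03 on the others. Of 10 endothelial genes 2 were higher and 3 lower, shares of 20% and 30% beside 27.4% and 25.3% of all genes. Of the higher ones, Esam (2.08 ± 0.83) was not called without OM replicate 2 (1.87) or 3 (1.77), and neither Esam nor Plvap (2.13 ± 0.56) with OM and mREF alone and mREF averaged. Of the lower ones, Pecam1 (-0.87 ± 0.36) was not called without OM replicate 1 (-0.66), OM replicate 2 (-0.88) or mREF replicate 1 (-0.80). Of 3 tested genes of ensheathing glia, which wrap the olfactory nerve, 2 were higher (66.7%, beside 27.4% of all genes), led by Sox10 at 10.49, 7.74 and 8.85 against 4.63, 4.54 and 4.63 (4.43 ± 0.78).

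Genes of matrix-producing and dividing cells were among those lower in OM. The largest fall was that of Gpnmb, a membrane glycoprotein of macrophages and pigment cells, at 4.85, 5.08 and 4.99 against 13.29, 13.41 and 13.53 (-8.44 ± 0.23, adjusted p = 1.35e-15, at least 221-fold lower, other probes at -5.02 to -3.08). Dlk1, an imprinted gene of embryonic tissues, read 4.92, 4.67 and 4.66 against 12.83, 12.82 and 12.82 (-8.07 ± 0.23, at least 147-fold lower). Cav1, the coat protein of caveolae, read 5.25, 5.36 and 6.11 against 12.95, 13.16 and 12.63 (-7.34 ± 0.57), and Lgals1, a galectin, 6.07, 7.51 and 8.10 against 14.28, 14.28 and 14.27 (-7.04 ± 0.73). The homeobox gene Hoxc6, which patterns the trunk and limbs, read 4.46, 4.51 and 4.59 against 11.47, 11.23 and 11.55 (-6.90 ± 0.21, at least 55.7-fold lower). The muscle genes Ankrd1 and Flnc were at least 71.2-fold and 55.8-fold lower, and neither was detected on any OM array. Slpi (-7.34 ± 0.31), Thbs2 (-6.86 ± 0.35) and Tubb6 (-6.77 ± 0.32) were the remaining falls of the 12 outside the matrix list.

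Of 14 genes of fibroblasts and matrix, 12 were lower (85.7%, beside 25.3% of all genes) and 0 higher, with a median of -4.71. Fibronectin, Fn1, read 5.19, 5.20 and 5.55 against 12.81, 13.19 and 13.02 (-7.69 ± 0.47, other probes at -4.71 to -2.96). The collagen genes Col5a1 (-6.94 ± 0.49), Col3a1 (-5.31 ± 0.25, at least 21.5-fold lower) and Col1a1 (-5.18 ± 0.65) and the matrix protein gene Sparc (-5.20 ± 0.90) fell with it. Dcn, the proteoglycan decorin, stood apart from them at 13.74, 12.45 and 12.71 against 12.98, 12.94 and 12.94 (0.02 ± 0.51, other probes at -0.90 to -0.63), and its sorted-cell mean was highest in Sus at 13.7. Of 6 myoblast genes 4 were lower (66.7%, beside 25.3% of all genes), among them Myl1 (-4.87 ± 0.24) and Des (-4.03 ± 0.25), neither detected on any OM array. Of 3 testis genes 1 was lower, the Leydig cell hormone gene Insl3 at 6.00, 5.44 and 5.77 against 9.08, 9.06 and 8.85 (-3.26 ± 0.61), and 1 higher, the steroid enzyme gene Cyp11a1 (1.48 ± 0.47). Of 6 embryonic and imprinted genes 3 were lower, among them the growth factor gene Igf2 (-3.23 ± 0.82), and 2 higher, of which Peg3 read 9.98, 9.72 and 9.53 against 6.38, 7.23 and 6.43 (3.06 ± 0.53). The 1 not called, Igf2bp3, differed by 0.40 ± 0.33 on its brightest probe but by -4.90 to -2.73 on 4 others. The shares lower and higher were 33.3% each for testis genes and 50% and 33.3% for embryonic genes, beside 25.3% and 27.4% of all genes. Of 11 hepatocyte genes 2 passed the filter, and both, Trf and Serpina1b, were higher in OM (2.72 ± 0.59 and 1.85 ± 0.50). That is 100% of those tested, beside 27.4% of all genes. Trf was detected on 1 mREF array and Serpina1b on none, so the filter largely fixed the direction of Serpina1b. The rest of the list was not tested.

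Every tested gene of cell division was lower in OM, beside 25.3% of all genes: 12 of 12 of G2/M and mitosis (median -3.30) and 20 of 20 of DNA replication and the G1/S step (median -3.21). Cdk1, the mitotic kinase, read 8.39, 7.36 and 7.58 against 12.37, 12.25 and 11.78 (-4.36 ± 0.70), and Aurkb, a kinase of chromosome segregation, 6.76, 6.40 and 6.40 against 10.93, 11.04 and 10.91 (-4.44 ± 0.65). Cdt1, which licenses replication origins, read 7.67, 7.54 and 7.72 against 11.65, 12.21 and 11.83 (-4.25 ± 0.48), and Mcm6 of the replicative helicase fell by 3.74 on the log2 scale. The fall was partial, as 11 of 12 mitotic genes and 14 of 20 replication genes were still detected on all 3 OM arrays. Of 10 genes on the list named for serine and one-carbon synthesis, 7 were lower (70%, beside 25.3% of all genes) and 0 higher (median -2.60). They were led by Psat1 at 8.93, 7.93 and 8.69 against 13.06, 12.93 and 12.73 (-4.39 ± 0.38) and Phgdh (-4.27 ± 0.42). The list is mixed, as the lower genes also hold Chac1 (-3.15 ± 0.37) and Asns (-2.16 ± 0.46), which are not enzymes of that synthesis. Ddit3, a stress factor on the same list, overlapped between the groups (-0.35 ± 0.51). Of 52 cytoplasmic ribosomal protein genes 26 were lower (50%, beside 25.3% of all genes) and 1 higher (1.92%, beside 27.4%), with a median of -0.72. Rplp0 led at 7.55, 7.70 and 7.60 against 11.68, 11.64 and 11.51 (-3.99 ± 0.27). The count lower was 46 with cyclic loess, 17 without OM replicate 1 and 11 with OM and mREF alone. The single higher one, named after its values were seen, was Rps15a (1.52 ± 0.30), and these families have many near-identical copies in the genome.

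Lists of genes that respond to stress and handling were mixed. Of 11 immediate early genes 3 were higher (27.3%, beside 27.4% of all genes) and 2 lower (18.2%, beside 25.3%), and Fos read 14.01, 12.37 and 12.87 against 12.28, 12.25 and 12.20 without being called (0.84 ± 0.55, adjusted p = 0.215). Dusp1 (1.12 ± 0.31) and Jun (0.97 ± 0.32) were called higher, and not so with OM and mREF alone and mREF averaged. Of 8 heat shock genes 3 were higher (37.5%, beside 27.4% of all genes) and 1 lower (12.5%, beside 25.3%), and the count lower was 2 without OM replicate 1 and without mREF replicate 3. Dnajb1 (1.13 ± 0.44) was not called without OM replicate 1 (0.67). The largest difference was that of Hspa1a at 12.04, 11.02 and 11.53 against 5.72, 5.16 and 5.82 (5.96 ± 0.96), although its other probes gave 0.94 and 2.54.

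The sorted groups of the series showed where the genes higher in OM were brightest. Their arrays also entered the filter, the normalisation, the choice of probe and the estimate of spread, so this is a description. Of 2808 genes called at least 2-fold higher and detected on all 3 OM arrays, 53.2% had their highest mean in OMP, 19% in Sus, 16.1% in Neurog1-Ctrl and 11.7% in Sox2GBC. Over all genes tested the shares were 28.5%, 32.3%, 19.8% and 19.4%. All 17 higher genes of the odorant cascade were highest in OMP, although Omp averaged 15.28 there, 15.27 in Sox2GBC and 15.23 in Neurog1-Ctrl, too close to be ranked. In OMP also lay the highest mean of 319 of 348 receptors, the other 29 being highest in Neurog1-Ctrl. Of 26 higher xenobiotic genes 18 were highest in Sus, and of 7 higher olfactory transcription factors 5 were highest in Neurog1-Ctrl. Genes of the Neurog1-Ctrl class included Calb2, the calcium buffer calretinin (OM minus mREF 8.89 ± 0.42), Olig1, a helix-loop-helix factor (8.26 ± 0.46), and the presynaptic gene Rims3 (8.06 ± 0.32). Genes of the Sox2GBC class included Scgb1c1, Vmo1 and Bpifb3, which encode secreted proteins, and Scgb1c1 averaged 15.3 in Sox2GBC, 15.1 in Sus, 14.6 in OMP and 13.8 in Neurog1-Ctrl. The Sus class included Sec14l3, Cyp2g1 and Wfdc2, a secreted protease inhibitor family gene (at least 259-fold higher).

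**Figure D5:**
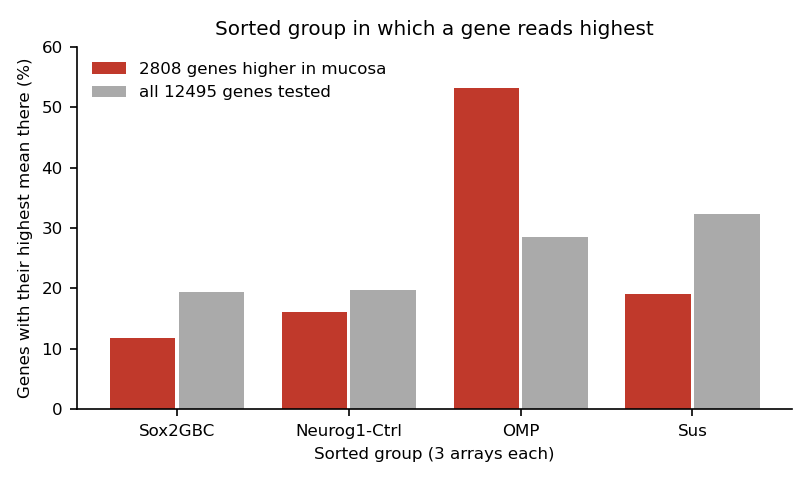
Share (%) of genes whose highest mean among the 4 sorted groups from unoperated mice lies in each group, for the 2808 genes higher in OM (red) and for all 12495 genes tested (grey). OMP holds 53.2% of the genes higher in OM and 28.5% of all genes.

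A small set of genes was brighter in whole mucosa than in any sort. Of the 2808 genes, 43 had an OM mean at least 1 log2 unit above each of the 18 arrays of the 6 sorted groups (1.53%), beside 105 of all 12495 genes (0.84%). They were led by Fcer1g, C1qb and the MHC class II genes H2-Ab1, H2-Aa and H2-Eb1, with gaps of 3.13, 3.04, 2.97, 2.96 and 2.95 to the brightest sorted array, followed by C1qc (2.89), S100a9 (2.51) and the chemokine gene Ccl17 (2.44). Ccl17 rose by 1.94 ± 0.39 over mREF and was not called with OM and mREF alone and mREF averaged. By list, the 43 held 6 of the 8 higher horizontal basal cell genes, 5 of the 6 higher myeloid genes and 3 of the 6 higher MHC class II genes. Krt5 averaged 9.71 in OM and 7.24, 5.59, 7.46 and 5.63 in Sox2GBC, Neurog1-Ctrl, OMP and Sus. Of the odorant receptors 2 were in the set.

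For some genes the call rested on which probe was read. Of 2721 called genes with further probes, 351 had at least 1 of opposite sign. Nme7, a nucleoside diphosphate kinase of cilia, read 14.88, 15.04 and 15.21 against 11.59, 11.41 and 11.56 on its brightest probe (3.52 ± 0.23), while its 6 other probes ran from -2.87 to 3.82. Sgip1, an endocytosis gene of neurons, was lower on its brightest probe (-3.62 ± 0.56) and higher on 2 others (1.82 and 2.83). Rarres2, the adipokine chemerin, was higher on the brightest probe (3.35 ± 0.30) and lower on 2 others (-2.70 and -1.79). Camk2d rose by 5.23 ± 0.33 with 7 other probes at -2.26 to 2.42, and Mtmr11 by 3.62 ± 0.34 with 2 others at -2.37 and -1.56. The probes may read different transcripts of a gene, which was not tested.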

How the data were processed

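Per the labels' protocols, RNA was extracted on Zymo columns, amplified to biotin-labelled cRNA with the Illumina TotalPrep kit and hybridised to Illumina bead arrays. The authors deposited a summarised bead intensity and a detection p-value for each of 45281 probes on each array, and GenomeStudio is named in the submitters' processing notes. Of these probes 34885 (77.0%) have 1 gene name, 18 have several and 10378 have none.

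Intensities were background-corrected with the normexp model, with an offset of 16 and the background estimated from the detection p-values, then quantile normalised over all 24 arrays and taken to log2. Probes with a detection p below 0.01 on at least 3 arrays were kept, and the brightest probe stood for each gene. limma 3.58.1 (R 4.3.3; figures with Python 3.11.15 and matplotlib 3.10.9) fitted all groups with Benjamini-Hochberg adjustment over 12495 genes. The 3 mREF arrays were averaged to 1 sample, so the spread came from the 7 mucosal groups (14 residual degrees of freedom). The labels describe pools of mice for OM, and the number of arrays limits the precision.

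A lower bound compares the brighter group's mean with, for each array of the dim group, the higher of the lowest detected signal and the probe's own signal. On simulated data with 50 of the 12495 genes changed at each size, 0%, 2%, 34% and 80% of changes of 0.5, 1, 2 and 3 log2 units were recovered, with 1 false call among 59. The simulation left all other genes equal between OM and mREF, and drew mREF with the spread of the mucosal groups. The data gave 6589 calls, so the simulation measures neither the recovery nor the false calls of this comparison.

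The gene lists and members were chosen with earlier results of these data known. Named genes were Omp, the 12 largest rises and 12 largest falls without overlap, up to 6 called and 3 other members of each list, the 6 called receptors with the highest OM mean, up to 5 genes for each sorted group, up to 8 with the largest gap above all sorted arrays, and up to 5 with probes of opposite sign. Acsm4, Cbr2, Dbn1, Dlx6, Kirrel2, Kirrel3, Ncam2, Neurod1, Neurog1, Slc17a6, Stmn1, Tubb3 and further members of the odorant cascade fell outside that rule and were added after their values were seen. Alternatives covered normalization, filters, probe choice, the handling of mREF, blocks, array weights, the authors' values and leaving out each array.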

Additional observations from a re-analysis of the deposited data

Results flagged for a closer look

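Probes without a single gene name took no part in the gene comparison, and some of them separated the groups by detection alone. Of 10396 such probes, 246 were detected on all 3 OM arrays and on no mREF array, and 135 on all 3 mREF arrays and on no OM array. Among the 246, 57 differed by at least 16-fold. The probe with the largest difference, ILMN_1256038, read 13.12, 13.99 and 13.86 on the OM arrays and 4.55, 4.52 and 4.75 on the mREF arrays, a difference of 9.05.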

How the results depend on the processing

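Over 20 alternative settings, 156 of the 188 called named genes besides Omp kept their call and direction in each, and 32 lost the call in at least 1. The count of called genes ran from 4498 with OM and mREF alone and mREF averaged to 9112 with array weights and mREF arrays separate. It was 8277 with mREF arrays separate, 8520 with the noise class as a block, 7691 with OM and mREF alone and mREF separate, and 5323 with median scaling. Deviations of same-numbered OM and mREF arrays from their group means correlated with r = 0.35, -0.07 and 0.18, and those of differently numbered arrays with -0.33 to 0.34. With 3 arrays in each group these values are tied together and cannot show whether the replicate numbers pair the samples. The replicate block called 8310 genes. Leaving out 1 array gave 6247 to 6806 calls. The share of calls that were higher in OM was 52.0%, against 62.3% with median scaling, 56.1% with the stricter filter, 50.7% with cyclic loess, 50.3% with the authors' values, 50.1% with no filter, 50.5% with the filter on OM and mREF arrays and 49.3% with the mean of all probes. Genes detected in mREF alone numbered 257 at a detection p of 0.05, in place of 401. The mean of all probes turned the sign of Igf2bp3 (-3.00), Mtmr11 (-0.10), Rarres2 (-0.38), Rpl23 (-0.53) and Sgip1 (0.34), whose probes disagree. Omp, at 9.80 in the main fit, differed by 7.32 with the mean of all probes, 8.17 with the authors' values and 8.74 without background correction. With cyclic loess it differed by 9.35 and with median scaling by 9.91, and it was called in each. Between OM replicates 2 and 3 and mREF replicate 3 it differed by 9.45, an alternative chosen after seeing the data. The median of the heat shock list moved from 0.72 to 0.14 and that of ribosomal protein genes from -0.72 to -1.55 with cyclic loess. The causes were not tested.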
